A study of Mus musculus with 1152 samples.

Results

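Semaphorins are guidance ligands, and plexins are the receptors through which they signal. Of the 23168 genes in the deposited table, 9 are described here by name: the semaphorin genes Sema7a, Sema3a, Sema3d, Sema3f and Sema6a, and the plexin genes Plxnd1, Plxna1, Plxna4 and Plxnb2. They were taken as the rows of the table that carry these symbols, and all 9 were found and had reads. The cells were lymphatic endothelial cells (LECs) of the nasopharyngeal lymphatic plexus (NPLP), a lymphatic network of the mucosa behind the nose that carries cerebrospinal fluid towards the deep cervical lymph nodes. They came from aged mice, labelled as strain C57BL/6, of both sexes with no transgene or treatment named. Mucosa had been pooled before CD31+ PDPN+ cells were sorted, and each cell was sequenced with Smart-seq3, a plate-based method whose reads cover whole transcripts. All labelled cells formed 1 group, of which 56.9% were analysed here.

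No label names the animal of a cell, so the pool is a single sample without replicates, and no comparison with younger mice was made. Every difference between cells below is therefore a description, with no test. Values are natural logs of 1 plus reads per 10000, and a gene counts as detected where this value is above 0. Shares of cells carry exact (Clopper-Pearson) 95% intervals, which cover counting error only.

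Most semaphorins of class 3 are secreted and bind a neuropilin, which in turn recruits a plexin, whereas semaphorins of the other vertebrate classes are held at the membrane and bind plexins directly. The intracellular part of a plexin acts on small GTPases, and through them on integrin adhesion and the actin cytoskeleton. In endothelium the system is known mainly for repelling or retracting cells. In lymphatic vessels, Sema3a signalling through neuropilin-1 and plexin-A1 is known for its part in valve formation, and Sema3f signalling through neuropilin-2 for restraining growth.

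The cells carried the transcripts of their label. The 8 LEC identity genes, among them Prox1, Flt4, Lyve1 and Pdpn, were detected in 87.7 to 100% of cells, with a median of 97%. Pdpn and Pecam1, 2 of the 8, encode the proteins used for the sort. Median shares of the marker lists of other cell types were 1.07% for haematopoietic, 1.07% for mural, 2.13% for fibroblast, 1.68% for Schwann and 1.83% for neuronal genes, although the fibroblast gene Dcn reached 30.03% and the neuronal gene Stmn2 51.2%. The 6 blood endothelial genes had a median of 38.1%, from 1.98% to the 96.2% of Emcn, with 3 of the 6 in at least 50% of cells, and the part of blood endothelial cells in the values was not tested. The 3 epithelial genes analysed lay between 0 and 0.610%. Reads per cell ran from 7046 to 10727631 with a median of 148202.5. Because a deeper cell detects more genes, shares are also given at an equal depth of 20000 reads drawn from each cell, for which 88 cells were too shallow.

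Detection split the 9 genes into widely and sparsely detected members. Sema3f, Sema6a and Sema3d were each found in close to 9 of 10 cells, Sema3a in 72.3%, Plxnd1 in 61.4% and Plxna4 in 54.6%, whereas Plxnb2, Sema7a and Plxna1 were found in 37.3%, 32.8% and 12.3%. All 9 genes were therefore detected in at least 10% of cells, as were 46.1% of the 20981 genes with a read. At least 50% of cells held 6 of the 9, against 13% of all genes with a read, and at 20000 reads 4 of the 9, against 7.32%. With all reads, at least 80% of cells held 3 of the 9, against 3.87%. Over the 9 genes, the median share was 61.4% with all reads and 44.9% at 20000 reads.

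**Figure D1:**
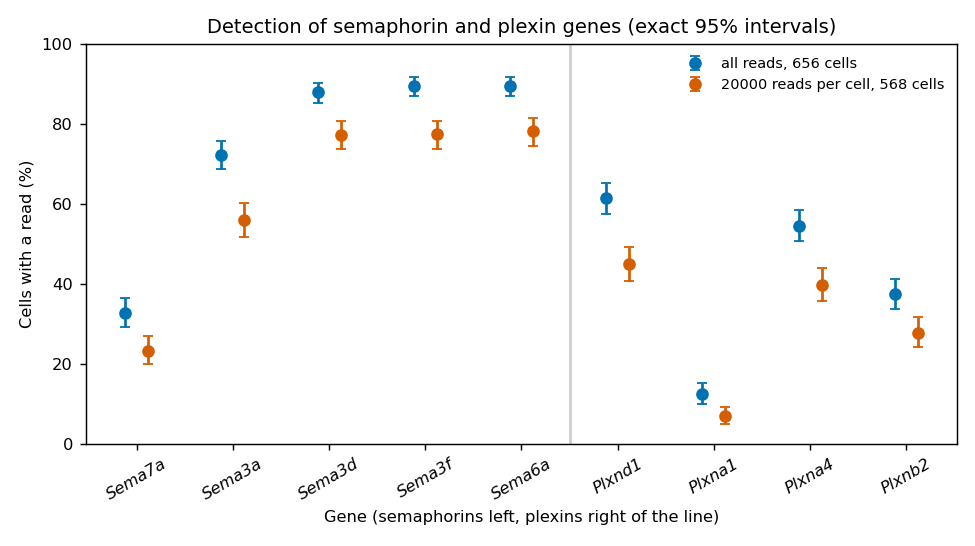
Share of cells with a read of each gene (vertical axis, percent) for the 5 semaphorin genes on the left and the 4 plexin genes on the right, with all reads of every cell (blue) and at 20000 reads per cell without the 88 shallower cells (orange); bars are exact 95% intervals for counting error. Sema3d, Sema3f and Sema6a stand together at 88 to 89.5% with all reads, and every gene has a lower share after thinning.

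Levels of different genes can be compared only per length of transcript. Divided by merged exon length, the mean level in reads per 10000 per kilobase was highest for Sema3f at 0.651, followed by Sema6a at 0.338, Sema3d at 0.263, Plxnd1 at 0.185, Sema7a at 0.164, Sema3a at 0.0979, Plxnb2 at 0.0738, Plxna4 at 0.0483 and Plxna1 at 0.00916. As a measure of spread within the pool, the cells were taken in 12 blocks of 96 consecutive cell numbers, with 18 to 83 analysed cells each. On this scale Sema3f lay above Sema6a in 12 of 12 blocks, although the ranges of their block means overlapped (0.372 to 0.769 and 0.157 to 0.413), and Plxna4 lay above Plxna1 in 12 of 12 with no overlap. All other neighbours in this order overlapped, and the gene with the higher mean was higher in 9 or 10 of 12 blocks. The place of Sema3a depended on the length used, because its merged exons span 13868 bases and its longest transcript 5930; per kilobase of longest transcript it stood at 0.229, above Plxnd1 at 0.195 and Sema7a at 0.164.

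Sema3f encodes a secreted ligand with a preference for neuropilin-2. It lies on mouse chromosome 9 (GRCm38, chr9:107681500-107710475, minus strand). It was detected in 89.5% of cells (86.9 to 91.7%) and in 77.5% (73.8 to 80.8%) at 20000 reads. Its natural log values ran from 0 to 3.28 with a median of 1.22 and a mean of 1.17. The 10% of cells with the most Sema3f held 34.4% of its summed level, so the gene was spread over most of the pool.

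Sema6a, a transmembrane semaphorin known to bind plexin-A2 and plexin-A4, is on chromosome 18 (chr18:47235598-47368870, minus strand). It was detected in the same share of cells as Sema3f, 89.5%, and in 78.2% (74.5 to 81.5%) at 20000 reads. Its values ran from 0 to 3.34 with a median of 1.04. The intervals of Sema6a, Sema3f and Sema3d overlapped both with all reads and after thinning, so these 3 shares could not be ordered at this number of cells.

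Sema3d and Sema3a are neighbours on chromosome 5 (chr5:12383385-12588948 and chr5:13125414-13602565, both plus strand). The end of Sema3d lies 536465 bases before the start of Sema3a, and 5 annotated genes lie between them, 0 of them protein-coding. Both encode secreted class 3 ligands: Sema3d is known as an endothelial guidance cue, and Sema3a is the classical repellent of growing axons. Sema3d was detected in 88% of cells (85.2 to 90.3%) and in 77.3% (73.6 to 80.7%) at 20000 reads. Its values ran from 0 to 2.95 with a median of 1.02. Sema3a was detected in 72.3% (68.7 to 75.7%) and in 56% (51.8 to 60.1%) at 20000 reads, with values from 0 to 2.99 and a median of 0.40. The share of Sema3a was thus below that of Sema3d, with intervals that did not overlap on either scale.

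Sema7a, whose product is tied to the membrane by a glycolipid anchor and binds plexin-C1 and beta-1 integrins, lies on chromosome 9 (chr9:57940112-57962865, plus strand). It was the least detected of the 5 ligands, in 32.8% of cells (29.2 to 36.5%) and in 23.2% (19.8 to 26.9%) at 20000 reads. Its natural log values had a median of 0, yet ran up to 3.05. The 10% of cells with the most Sema7a held 76.4% of its summed level, against 32.6 to 45.5% for the other 4 ligands. A large part of the Sema7a signal was thus carried by few cells.

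Promoters of Sema3d, Sema3a and Sema7a are printed because the first pair are neighbours whose levels moved together most among the 9 genes, while Sema7a was the ligand with the most uneven signal. Each sequence is the 250 bases before the RefSeq start site on GRCm38.p6, and RefSeq promoters were at hand for 5 of the 9 genes. Capitals mark matches, on either strand, to 6 motifs that were searched: AGATAA for GATA factors, TAAACA for forkhead factors, TGGAAA for NFAT, TGANTCA for AP-1, GGGCGG for the GC box and TATAAA for the TATA box. The windows are chr5:12382916-12383165 for Sema3d, chr5:13396534-13396783 for Sema3a and chr9:57939862-57940111 for Sema7a, all on the plus strand. The Sema3a window lies inside the GENCODE span of the gene but in none of its exons, since GENCODE places the first start further upstream.
Sema3d: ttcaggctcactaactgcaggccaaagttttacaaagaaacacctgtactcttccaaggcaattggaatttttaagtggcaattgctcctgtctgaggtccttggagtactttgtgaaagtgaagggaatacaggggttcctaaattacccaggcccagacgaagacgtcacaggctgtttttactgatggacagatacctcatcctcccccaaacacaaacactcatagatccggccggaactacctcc
Sema3a: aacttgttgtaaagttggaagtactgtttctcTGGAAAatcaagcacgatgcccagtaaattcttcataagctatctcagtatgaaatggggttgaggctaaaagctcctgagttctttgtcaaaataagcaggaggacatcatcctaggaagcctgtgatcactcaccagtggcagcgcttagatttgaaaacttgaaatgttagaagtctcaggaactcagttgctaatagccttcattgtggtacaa
Sema7a: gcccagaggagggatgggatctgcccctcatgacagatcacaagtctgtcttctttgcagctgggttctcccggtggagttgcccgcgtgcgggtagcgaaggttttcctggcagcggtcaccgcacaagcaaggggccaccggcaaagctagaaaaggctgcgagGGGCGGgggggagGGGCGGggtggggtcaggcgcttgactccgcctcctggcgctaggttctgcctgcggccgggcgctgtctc

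The Sema3d window held 0 of the 6 motifs and the Sema3a window held an NFAT match near its upstream end, a motif found in 18.6% of all 32851 promoters of this length. The Sema7a window held 2 GC boxes, at 66 to 71 and 79 to 84 bases before the start, and a GC box was found in 32.7% of all promoters. The other motifs were found in 9.99% (GATA), 12% (forkhead), 6.75% (AP-1) and 12.4% (TATA box) of promoters. Base composition differed more plainly: 46.8% of bases were G or C for Sema3d, 40.8% for Sema3a and 66.4% for Sema7a, against a median of 52.4%, with 4, 2 and 17 CpG dinucleotides against a median of 6.

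Among the receptors, Plxnd1 was the most widely detected of the 4. Plexin-D1 is the plexin best known from endothelium, where it takes part in vessel patterning. The gene lies on chromosome 6 (chr6:115954811-115995005, minus strand) and was detected in 61.4% of cells (57.6 to 65.2%), and in 44.9% (40.8 to 49.1%) at 20000 reads. Its values ran from 0 to 3.19 with a median of 0.10, and 10% of the cells held 56.2% of its summed level.

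Plxna4 and Plxna1 are also on chromosome 6 (chr6:32144268-32588192 and chr6:89316314-89362620, both minus strand) and encode signalling partners of neuropilins for class 3 ligands. Plxna4 was detected in 54.6% of cells (50.7 to 58.4%) and in 39.8% (35.7 to 43.9%) at 20000 reads, with values up to 2.39. Its interval overlapped that of Plxnd1 on both scales. Plxna1 was detected in 12.3% (9.93 to 15.1%) and in 6.87% (4.93 to 9.27%) at 20000 reads, the lowest shares of the 9 genes, although its highest value was 1.88. Plxna1 shares 970 exon bases with the antisense gene Gm26811, and Plxna4 shares 110 with Plxna4os3. Whether reads were counted by strand is not stated in the sources used here, so reads over these stretches cannot be assigned to a strand. The antisense genes themselves were detected in 1.22% and 0.610% of cells.

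Plxnb2, on chromosome 15 (chr15:89155549-89180788, minus strand), encodes a receptor of class 4 semaphorins such as Sema4c. It was detected in 37.3% of cells (33.6 to 41.2%) and in 27.8% (24.2 to 31.7%) at 20000 reads. Its values ran from 0 to 2.60 with a median of 0, and 10% of the cells held 69.9% of its summed level. Its interval overlapped that of Sema7a.

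The remaining genes of the system were described from a list of 24 further semaphorins, plexins, neuropilins and Sema7a-binding integrins, of which 20 were analysed here and Sema3c, Sema3e, Sema3g and Sema4f were not. At least 50% of cells held 5 of the 20, and 12 of the 20 were detected in under 10%. The neuropilin gene Nrp2 was detected in 95.6% of cells (93.7 to 97%), more than any of the 9 genes, and had a mean natural log value of 1.43. Nrp1, its paralogue and the main binding partner of Sema3a, was detected in 4 cells, or 0.610% (0.166 to 1.55%). Plxna2, a receptor of Sema6a, was detected in 73.2% (69.6 to 76.5%), above each of the 4 plexin genes described here with intervals that did not overlap. Sema6b, a close relative of Sema6a, reached 57.9%. The known receptors of Sema7a also differed in detection: Plxnc1 was detected in 1.22% of cells (0.528 to 2.39%), whereas the integrin genes Itgb1 and Itga1 were detected in 88.4% and 54.1%. The other plexins, Plxna3, Plxnb1 and Plxnb3, were detected in 3.35 to 5.49%.

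**Figure D2:**
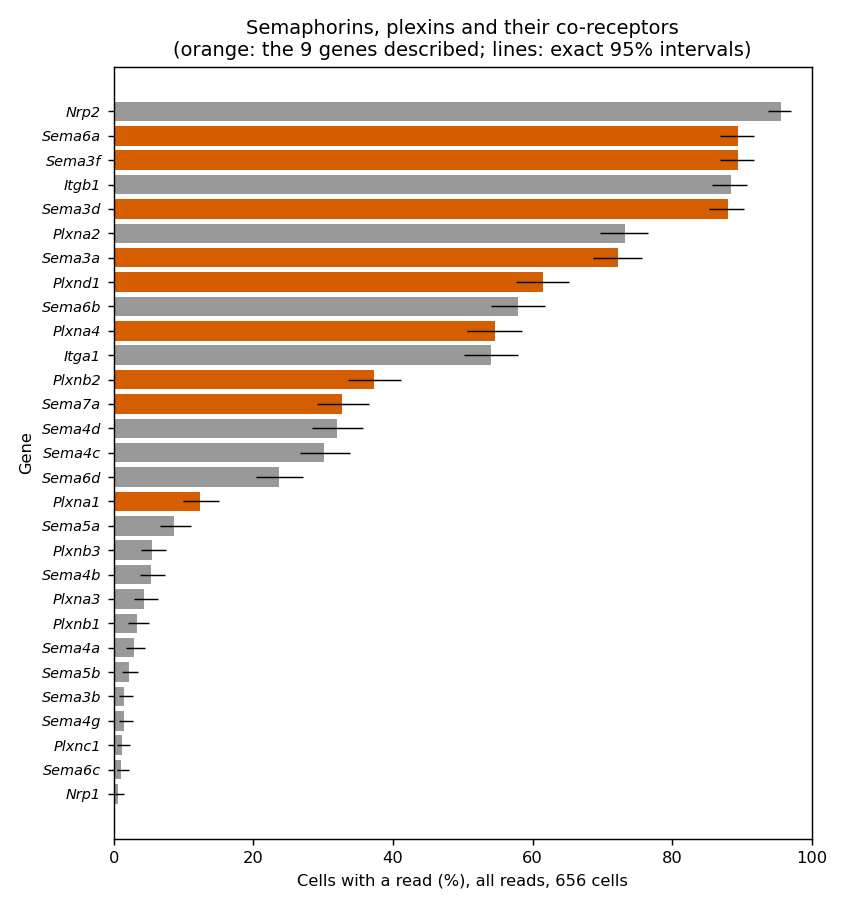
Share of all cells analysed with a read (horizontal axis, percent) for the 9 genes (orange) and the 20 further genes of the system (grey), in order of share; lines are exact 95% intervals. Nrp2 is at the top with 95.6% and Nrp1 at the bottom with 0.610%, and the 9 genes lie between 12.3 and 89.5%.

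The median cell held more of the 5 semaphorins than of the 4 plexins described here. At 20000 reads, at least 1 of the 5 semaphorins was detected in 98.9% of cells (97.7 to 99.6%), with a median of 3 per cell. All 5 were detected in 5.46% of cells (3.74 to 7.66%), and Sema3a, Sema3d and Sema3f together in 38% (34 to 42.2%). At least 1 of the 4 plexins was detected in 77.5% (73.8 to 80.8%), with a median of 1 per cell, and 0.352% of cells (0.0427 to 1.27%) held all 4. Counting all 9 plexin genes analysed, 90.1% of cells (87.4 to 92.5%) had a read of at least 1. The median was then 2 plexins per cell, and 4 for all 16 semaphorin genes analysed. Neuropilins and integrins, among them Nrp2 and Itgb1, were not counted as receptors, so these counts depend on the genes listed. A cell without a plexin read at this depth may still express the gene, since shares were higher in deeper cells.

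Ligands were set side by side within cells with genes of their known receptors or signalling partners, as 12 pairs at 20000 reads. In pairs of a class 3 ligand with a plexin, the plexin is a signalling partner that most such ligands reach through a neuropilin. The pairs of Sema3a and Sema3d with Nrp1 and of Sema7a with Plxnc1 gave no value, because fewer than 20 cells held the receptor. In the remaining 9 pairs the ligand was detected more often with the receptor than without it in 7 and less often in 2, with a median difference of 3.01 percentage points and overlapping intervals in all 9. The widest gaps were those of Sema3d, found in 82.7% (77.5 to 87.2%) of cells with Plxnd1 and 72.8% (67.6 to 77.7%) without, and of Sema3f, found in 84.6% (69.5 to 94.1%) of cells with Plxna1 and 76.9% (73.1 to 80.5%) without. Sema3f was found in 78.4% (74.5 to 82%) of cells with Nrp2 and 71.4% (60 to 81.2%) without. Sema7a was found in 23.3% of cells with Itgb1 and 23.2% without.

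To see how the 9 genes varied among LECs, the cells were clustered with the steps of the study, leaving out every semaphorin, plexin and neuropilin gene, none of which was among the 2000 variable genes in any case. At the lowest resolution that gave at least 5 clusters there were 6, and 4 of them met the rule for a name from markers. A Ptx3+ capillary-like cluster (27.3% of cells) had higher Ptx3, Stab2, Stab1, Mrc1, Itih5 and Kcnj8. A Ptx3- capillary-like cluster (17.1%) had higher Fndc1, Reln and Piezo2 and is called Fndc1-led. A cluster with higher Ptn, Anxa3 and Stc1 (21%) met the rule for the same name but shared none of those markers. Anxa3 and Stc1 had been put on the marker list with earlier results of these data known. Without them Ptn alone would remain, beside Gata2 and Clu of the valve lists, too few for a name. It is therefore called Ptn-led. An upstream-valve-like cluster (7.01%, 46 cells) had higher Cldn11, Neo1 and Gata2, 3 of the 6 upstream-valve markers listed. Foxc2, Itga9 and Nfatc1 did not meet the rule for a raised marker there. Gata2 was also raised in the Ptn-led cluster, so the valve name rests on few genes. A cluster with Apoe, Bmp4 and Clu among its leading genes (22.6%) had 3 precollecting and 3 downstream-valve markers, and a cluster led by interferon-response genes (5.03%, 33 cells) had 1 marker in all, so both stayed unnamed. Median reads per cell ran from 89915 in the Ptn-led to 220265.5 in the upstream-valve-like cluster, so shares by cluster are given at 20000 reads. Names were rebuilt from markers and need not hold the same cells as the classes of the study.

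The spread of the 9 genes between these clusters was set against that of all genes. The range between the lowest and the highest cluster mean had a median of 0.43 on the natural log scale over the 9 genes, against 0.13 over the 9666 genes with reads in 10% of cells or more. These sets were not matched for level or detection. The 9 genes had a median share of 61.4%, whereas 2724 genes in all were found in at least 50% of cells. The members were also chosen with earlier results of these data known, so these medians do not compare like with like. A cluster mean at least 1.5-fold above or below that of all other cells, with 0.1 reads per 10000 added to both, was reached in some cluster by 8 of the 9 genes and by 53% of the 9666 genes. With 1 read per 10000 added, 3 of the 9 genes and 6.51% of the 9666 reached it. Sema3f was the member that did not reach it with 0.1 reads per 10000 added, with cluster means from 1.03 to 1.37.

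Sema7a was concentrated in the Ptx3+ capillary-like cluster. Its mean natural log value was 0.62 there, against 0.10 in all other cells and 0.06 to 0.14 in each of the other 5 clusters, and its linear mean was 1.53 reads per 10000 against 0.172, a fold of 5.99 with 0.1 reads per 10000 added to both. All folds below are on this scale. It ranked 6 of 9503 genes by this fold, while 5.88% of genes reached 1.5-fold higher in that cluster and Sema7a was the single member that did. At 20000 reads, Sema7a was detected in 51.6% of these cells (43.5 to 59.7%) and in 12.6% (9.55 to 16.2%) of the others. Of the 67 cells with a Sema7a value above 1, 53 (79.1%) lay in this cluster, which held 27.3% of all cells.

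The gap in Sema7a was also described by splits on single genes, chosen after the data were seen. Stab2 and Ptx3 are markers that named the cluster, and the values within blocks use the same cluster labels. Neither is therefore independent of the clusters. In a split of the cells by a read of Stab2, a scavenger receptor of capillary LECs, Sema7a was detected at 20000 reads in 46.6% (39.1 to 54.2%) of cells with Stab2 and 12.8% (9.62 to 16.5%) without. In a split by Ptx3, it was detected in 57.4% (43.2 to 70.8%) and 19.6% (16.3 to 23.4%). Its mean was higher in the cluster than in the other cells of the same block in 11 of 11 blocks with at least 3 cells of the cluster, by 0.20 to 0.93 with a median of 0.51. Clustering without regression of depth and quality scores gave a smaller difference of 0.22.

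**Figure D3:**
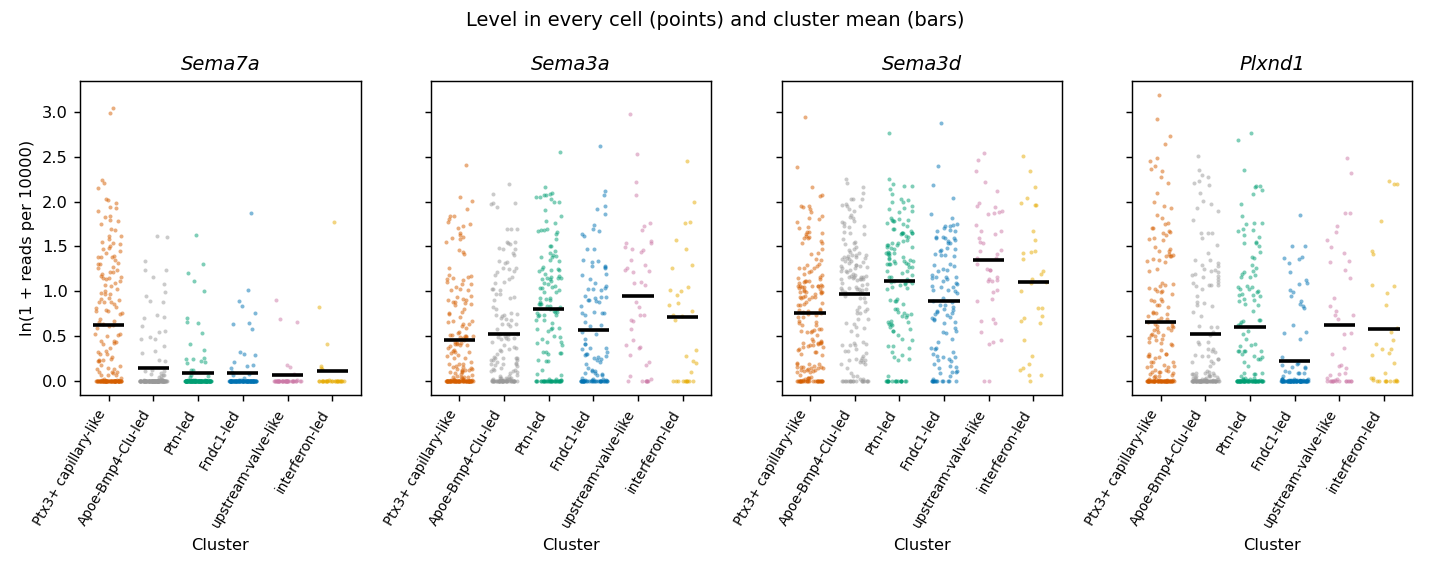
Natural log of 1 plus reads per 10000 (vertical axis) of Sema7a, Sema3a, Sema3d and Plxnd1 in every cell (points) of the 6 clusters (horizontal axis), with the cluster mean as a bar. Most Sema7a points above 1 are in the Ptx3+ capillary-like cluster, Sema3a and Sema3d have their highest means, 0.95 and 1.35, in the upstream-valve-like cluster, and Plxnd1 its lowest, 0.23, in the Fndc1-led cluster.

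By mean natural log value, Sema3a and Sema3d shared their order at both ends. Both had their highest mean in the upstream-valve-like cluster, 0.95 for Sema3a and 1.35 for Sema3d, and their lowest in the Ptx3+ capillary-like cluster, 0.46 and 0.75. The upstream-valve-like fold over all other cells was 1.90 for Sema3a and 1.63 for Sema3d, and 7.94% of genes were at least 1.5-fold higher there. At 20000 reads, Sema3a was detected in 83.3% (68.6 to 93%) of upstream-valve-like cells and 53.8% (49.4 to 58.1%) of the others, and Sema3d in 95.2% (83.8 to 99.4%) and 75.9% (72 to 79.5%). The Ptn-led cluster came next for both, with 72.3% for Sema3a and 87.4% for Sema3d. By share, Sema3d was lowest in the interferon-led cluster at 66.7% (46 to 83.5%). The Ptx3+ capillary-like cluster was close to it at 68.4% (60.4 to 75.6%). Sema3a was 0.651-fold in the Ptx3+ capillary-like cluster, where 5.99% of genes were at least 1.5-fold lower. At 20000 reads it was detected in 44.5% (36.5 to 52.7%) of these cells and 60.3% (55.4 to 65%) of the others. A split by a read of Stab2, a marker that named this cluster, did not show this gap. Sema3a was detected in 55.1% (47.4 to 62.6%) of cells with Stab2 and 56.4% (51.3 to 61.3%) without.

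Within blocks, Sema3a and Sema3d were each higher in upstream-valve-like cells in 7 of the 8 blocks with at least 3 such cells. A split by a read of Cldn11, a claudin of valve LECs, gave smaller gaps: 59.2% (52.7 to 65.5%) with and 53.6% (48.1 to 59.1%) without for Sema3a, and 81.5% (76 to 86.2%) with and 74.2% (69.2 to 78.9%) without for Sema3d, with overlapping intervals. The upstream-valve-like cluster behind these differences held 46 cells.

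Plxnd1 was low in the Fndc1-led Ptx3- capillary-like cluster. Its mean was 0.23 there, against 0.60 in all other cells and 0.52 to 0.66 in each of the other clusters, and its fold was 0.321. At 20000 reads, 20.9% (13.1 to 30.7%) of these cells held Plxnd1, against 49.5% (44.9 to 54.1%) of the others. In this cluster 7.62% of genes were at least 1.5-fold lower, among them 3 of the 9: Plxnd1, Sema7a at 0.334-fold and Plxnb2 at 0.482-fold. Within blocks, Plxnd1 was lower in this cluster in 10 of 10. In a split by a read of Fndc1, a marker that named the cluster, 37.1% (30.3 to 44.3%) of cells with Fndc1 held Plxnd1. Without Fndc1, 48.9% (43.8 to 54.1%) did, which is the same direction with a smaller gap.

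Sema6a ran opposite to Sema3a and Sema3d at 1 end. It was lowest in the upstream-valve-like cluster, with a mean of 0.76 and a fold of 0.658, and highest in the Fndc1-led cluster, with a mean of 1.26. Its fold was 1.17 in the Fndc1-led and 1.21 in the Ptx3+ capillary-like cluster. At 20000 reads, 59.5% (43.3 to 74.4%) of upstream-valve-like and 90.1% (82.1 to 95.4%) of Fndc1-led cells held Sema6a. These intervals did not overlap, but the clusters were picked as the lowest and highest of the 6. Split by Fndc1, the shares were 82.5% (76.4 to 87.5%) with and 75.9% (71.3 to 80.2%) without, with overlapping intervals. Split by Cldn11, which does not isolate the upstream-valve-like cluster, the shares were 78.2% with and 78.2% without.

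The plexins other than Plxnd1 moved less by mean natural log value. Their ranges between the lowest and the highest cluster mean were 0.08 for Plxna1, 0.26 for Plxna4 and 0.28 for Plxnb2, against 0.43 for Plxnd1. By fold over all other cells this did not hold for Plxnb2, which ran from 0.440 to 1.89, against 0.321 to 1.48 for Plxnd1. Plxnb2 was highest in the Apoe-Bmp4-Clu cluster, with a mean of 0.41 and a fold of 1.89, where 3.32% of genes were at least 1.5-fold higher. It was lowest in the upstream-valve-like cluster at 0.13 and the Fndc1-led cluster at 0.14. Plxna4 was also highest in the Apoe-Bmp4-Clu cluster, at 0.46, and lowest in the upstream-valve-like cluster, at 0.21. Its shares at 20000 reads, from 31 to 47.8%, had overlapping intervals in all 6 clusters. Plxna1 was detected at 20000 reads in up to 13.4% (7.88 to 20.9%) of a cluster, the Ptn-led one. It was found in 0 of 42 upstream-valve-like cells, with an exact upper limit of 8.41%, and in 0 of 27 interferon-led cells, with an exact upper limit of 12.8%. The cells outside each cluster held it in 7.41% and 7.21%, below these upper limits, so a lower share was not shown. A floor of 3 cells would stand at 7.14% and 11.1%.

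In the upstream-valve-like cluster 14.9% of genes were at least 1.5-fold lower, and 5 of the 9 were: Sema7a, Sema6a, Plxna1, Plxna4 and Plxnb2, with folds from 0.272 for Sema7a to 0.658 for Sema6a. Nrp2 was lower there too, with a mean of 0.83 against 1.48 in all other cells and 64.3% (48 to 78.4%) against 88.2% (85.1 to 90.8%) at 20000 reads. In the interferon-led cluster 16.4% of genes were at least 1.5-fold lower, among them Sema7a at 0.480-fold and Plxna1 at 0.543-fold, while 11.1% were higher, 0 of the 9 among them. In the Apoe-Bmp4-Clu and Ptn-led clusters Sema7a was the single member at least 1.5-fold lower, against 6.24% and 4.62% of genes. In the Ptn-led and Fndc1-led clusters 3.05% and 4.67% of genes were at least 1.5-fold higher, and 0 of the 9 were.

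**Figure D4:**
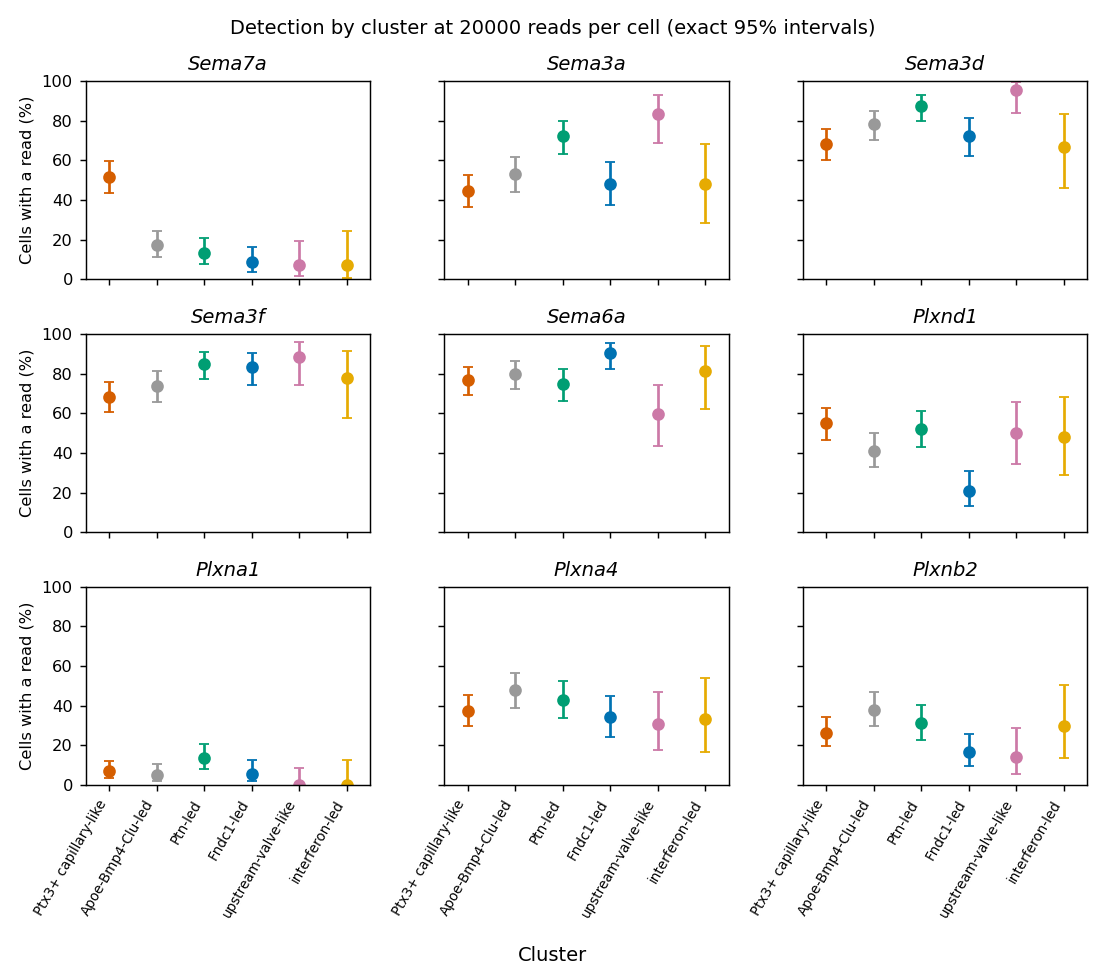
Share of cells with a read at 20000 reads per cell (vertical axis, percent) for each of the 9 genes (panels) in the 6 clusters (horizontal axis), with exact 95% intervals for counting error. Sema7a is at 51.6% in the Ptx3+ capillary-like cluster and at 7.14 to 17.2% elsewhere, and Plxnd1 is at 20.9% in the Fndc1-led cluster and at 41 to 54.8% elsewhere.

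Blocks of consecutive cell numbers gave the spread within the pool, although the labels do not say whether a block was a plate. At 20000 reads, the share of cells with Sema7a had a lowest value of 6.25%, a median of 23.1% and a highest value of 36.7% over the 12 blocks. Sema3a ranged from 35 to 68.1% around a median of 55.8%, Sema3d from 67.6 to 100% around 76.1%, Sema3f from 56.2 to 82.9% around 78.6% and Sema6a from 65 to 85.1% around 78.2%. Plxnd1 ranged from 34.6 to 55.1% around 45.2%, Plxna1 from 0 to 11.3% around 6.21%, Plxna4 from 27.5 to 58.5% around 41.2% and Plxnb2 from 12.5 to 42.9% around 29.2%. Many of these extremes were in the 2 blocks with the fewest cells, 18 and 20, whose cells were also by far the deepest, with medians of 2450279.5 and 2042788.5 reads. Leaving out each block in turn moved the median share of the 9 genes with all reads between 60.8 and 62.4%.

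**Figure D5:**
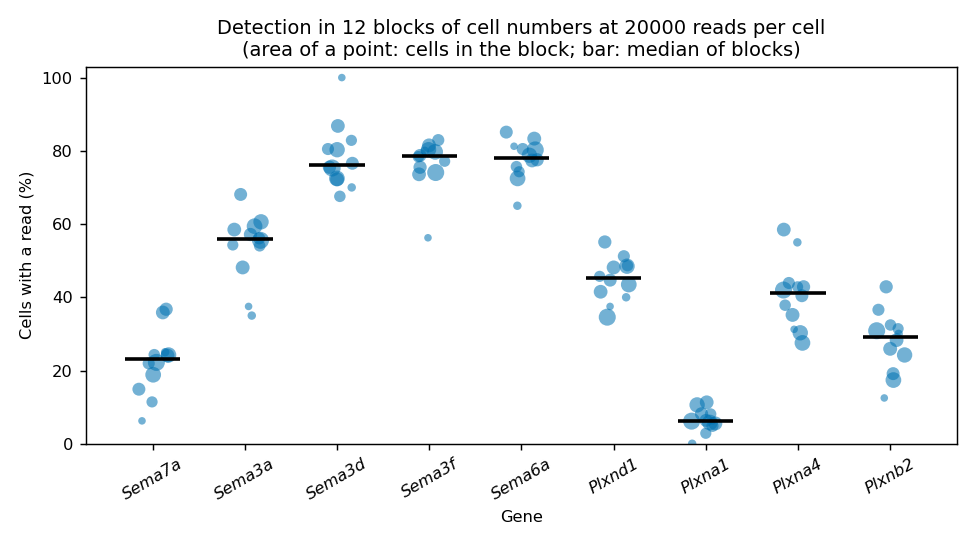
Share of cells with a read at 20000 reads per cell (vertical axis, percent) for each of the 9 genes (horizontal axis) in 12 blocks of 96 consecutive cell numbers; the area of a point grows with the number of cells in the block, and bars are medians over blocks. Sema3d, Sema3f and Sema6a have medians of 76.1 to 78.6%, and the small points at the extremes are the blocks with few cells.

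Detection differed with depth, and so did the levels of some genes. In the shallowest 25% of cells, with a median of 18620 reads, Sema3a was detected in 47% (39.1 to 54.9%), and in the deepest 25%, with a median of 1702972 reads, in 90.2% (84.6 to 94.3%), while its mean natural log value was 0.55 and 0.64. For Plxnd1 the shares were 43.9% and 77.4%, with means of 0.47 and 0.50. For Sema7a the shares were 23.2% and 39%, with means of 0.27 and 0.21. The mean was 0.90 in the shallowest and 1.11 in the deepest cells for Sema3d, and 0.019 and 0.043 for Plxna1, whose share went from 3.05% to 18.3%, whereas the mean of Sema6a was 1.17 in the shallowest and 0.93 in the deepest while its share went from 76.8% to 95.1%. Spearman correlation of the 9 genes with the number of reads, across cells of the same pool, ran from -0.09 for Sema6a to 0.14 for Plxna1, and with a score of dissociation-induced genes from -0.12 for Plxnd1 to 0.05 for Plxnb2.

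Across all cells analysed, which share the pool and the library protocol and differ in depth, the 9 genes were weakly related to each other. The 36 pairs had Spearman correlations from -0.12 to 0.25 with a median of 0.030, and 26 were above 0. The highest value, 0.25, was that of the neighbours Sema3a and Sema3d, and it was 0.22 at 20000 reads. The lowest, -0.12, was that of Sema7a and Sema3a, and it was -0.16 at 20000 reads. In sparse values of this kind such weak correlations do not establish a relation.

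The genes most like each member were sought among the 5279 genes that 30% of cells or more held. For Sema7a they were Gm525 at 0.43 and Stab2 at 0.42, and both were also the most alike at 20000 reads, at 0.49 and 0.44. For the other 8 genes the highest correlation lay between 0.17 and 0.25 with all reads. Adamtsl1 was most like Sema3a (0.25), ahead of Sema3d, and was so at 20000 reads too (0.26), followed there by Plpp1. Sparc was most like Plxnd1 (0.22, and 0.26 at 20000 reads), with Igfbp7 next and Prss23 in its place at 20000 reads. Tgfa was most like Plxnb2 (0.23, and 0.21), with Ctsz next and Tmem176a in its place. For Sema3d the most alike were Sema3a and Fstl1 (0.25 and 0.23), and at 20000 reads Msn and Btnl9 (0.23 and 0.22). Plec and Ece1 were most like Sema3f (0.23 and 0.23), Reln and Lyve1 most like Sema6a (0.23 and 0.21), Stx2 and Slc30a9 most like Plxna4 (0.19 and 0.18), and Tspyl1 and Ncoa6 most like Plxna1 (0.17 and 0.17). At 20000 reads their places were taken by Thbd and Ackr3 for Sema3f, Tril and Slco2b1 for Sema6a, Piezo1 and Creb3l2 for Plxna4, and Ntn1 and Gosr2 for Plxna1, at correlations from 0.14 to 0.26, so these partners depended on depth.

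Downstream of the plexins, a list of 34 signalling genes held 33 that were analysed here. Of these, 14 were detected in at least 50% of cells and 9 in under 10%, with a median share of 45.1%. The 3 most widely detected were Cfl1, which encodes the actin-severing protein cofilin, at 98.6%, Rhoa, a small GTPase, at 96.2%, and Dpysl2, a collapsin response mediator known from Sema3a signalling, at 92.4%. At 20000 reads the median share was 29.4%, compared with 33.8% over the 4 plexins and 77.3% over the 5 semaphorins.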

How the data were processed

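Per the labels and the methods, sorted cells were sequenced with Smart-seq3, and the authors aligned reads to mm10 with STAR, counted them per gene with featureCounts (Subread) and normalised them in Seurat 4.1.0 (submitters' processing notes). Labels described 1152 cells, and 656 had a column in the deposited table of 23168 genes. The deposited values were natural log values of 1 plus reads per 10000: the methods name log2, but undoing a natural log gave sums of 10000 for each cell. Taking the smallest value above 0 in a cell as 1 read, 100% of values were whole reads within 0.01 reads. Counts are of reads without molecular identifiers, and copies made by PCR remain in them. The stated filters were at least 2000 genes and at most 10% mitochondrial reads per cell, and the cells held 2006 to 7679 genes. No pair of cells had identical values, and 0 columns were left unused. No doublet caller was run, since cells had been sorted singly into wells.

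All cells form 1 group with no animal named, so no test was run and no p-value was computed. Thinning drew 20000 reads without replacement from each of 568 cells. Clustering used Seurat 5.3.0 (R 4.3.3) with 2000 variable genes, regression of total reads, mitochondrial share, and dissociation and ribosomal scores, 15 components and a resolution of 0.8, which gave clusters of 179, 148, 138, 112, 46 and 33 cells. A marker counted as raised at 1.5-fold with 0.1 per 10000 added if at least 10% of the cluster had a read, and a name needed 3 raised markers and more than any other class. Intervals used scipy 1.17.1. Gene positions and lengths came from GENCODE M21 (GRCm38), where 22272 of 23168 symbols were found, and promoters from RefSeq (GRCm38.p6).

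The genes named were the 9 members, further family genes in at least 50% of cells, the receptors of the ligand and receptor pairs, the 3 most detected signalling genes, the 2 most correlated genes of each member, and identity and marker genes. Dcn, Stmn2, Plxna3, Plxnb1, Plxnb3 and the antisense neighbours were named after their values were seen. The members and lists were chosen with earlier results of these data known. On simulated data, reads were recovered in 100% of cells (23168 genes), thinning gave 1.00 times the expected number of genes, planted partners ranked first in 89% (11423 genes), and 99.1% of cells fell with their planted class (20528 genes). Alternatives covered thresholds, depth, cell filters, clustering settings, gene length and blocks.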

Additional observations from a re-analysis of the deposited data

How the results depend on the processing

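With a detection threshold of 1 on the natural log scale, the median share over the 9 genes moved from 61.4% to 24.7%, and the members found in at least 50% of cells from 6 to 3, and 4 were found so at 20000 reads. The median share was 44.9% at 20000 reads, 57% at 100000 reads and 67.4% in cells with at least 3000 genes, and 60.1 to 63.4% under the other 4 alternatives. Leaving out each block of cell numbers in turn gave 60.8 to 62.4% and always 6 members. The median level per kilobase, 0.164, was 0.0140 when the median of cells was taken. The median co-detection difference, 3.01 percentage points, was 8.06 without thinning. The number of members past 1.5-fold in some cluster, 8, was 3 with 1 read per 10000 added, where 6.51% of all genes tested passed against 53% before, and 6 to 8 under the clustering alternatives. The median range between clusters stayed between 0.35 and 0.55, and the median correlation between 0.023 and 0.029. Splits by Stab2, Ptx3, Cldn11 and Fndc1, and another seed for thinning, were chosen after seeing the data; the seed moved the median range of thinned shares from 28.6 to 24.5 percentage points. Of the values for single genes, 35 moved. Shares counted as moved when they left their interval. The 4 signed differences among the 35 changed by more than a factor of 1.5 and kept their sign. The cause of these moves was not tested. No paired analysis was possible because there was 1 group. Depth limits shares: a gene missed at 20000 reads was often found in deeper cells.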
